A study of Homo sapiens with 30 samples.

Results

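The messages of the nuclear-encoded respiratory chain were examined for A-to-G changes in HEK 293T cells, a human embryonic kidney cell line. Members were the sites of a transcriptome-wide table of edited-read shares that lie in exons of protein-coding GENCODE v29 genes (GRCh38) whose symbols start with NDUF, UQCR, ATP5, SDHA, SDHB, SDHC, SDHD or COX and a digit, read-through genes excluded. This symbol rule gave 2755 of the 382978 listed sites, in 97 of the 110 genes that carry such a symbol. Of the 2755 sites, 2151 were coding, 419 lay in 3′ UTRs, 161 in 5′ UTRs and 24 in noncoding exons, and 2326 lay in exons of no other gene. At the others, reads of the overlapping genes cannot be told apart, since the strand of counting is not given in the sources used here. The symbol rule also takes in assembly factors and the inhibitor ATP5IF1, which are not subunits of the mature complexes and are given apart below.

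The study asked how often programmable adenosine deaminases edit RNA away from their target. HEK 293T cells were transfected and harvested 60 hours later, and poly(A) RNA was sequenced. In 16 libraries MCP, a phage coat protein with affinity for the MS2 hairpin, carried the deaminase domain (DD) of either ADAR1 or ADAR2. Each such domain was wild type or carried a glutamate-to-glutamine change (E1008Q in ADAR1, E488Q in ADAR2). Each fusion was directed to the cytoplasm by a nuclear export signal (NES) or to the nucleus by a nuclear localisation signal (NLS), and was used with or without the MS2 adRNA, a guide RNA carrying MS2 hairpins. A further 4 libraries held ADAR2 labelled without the DD that marks a deaminase domain, here called full-length, wild type or E488Q, with or without the GluR2 adRNA. The remaining 2 held Cas13b fused to the ADAR2 E488Q domain with or without its gRNA. The controls were untransfected cells (3 sequencing runs used), cells given GFP, and cells given each of the 3 guide RNAs alone. Every deaminase condition was 1 library from 1 cell line, so the tests below measure spread across conditions and not between separate cultures.

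The respiratory chain passes electrons from NADH (complex I) and succinate (complex II) through complex III and cytochrome c to oxygen at complex IV, and ATP synthase uses the proton gradient that complexes I, III and IV build. Most subunits are encoded in the nucleus, translated in the cytosol and imported into mitochondria, whereas a small set of core subunits is encoded and translated inside the organelle. ADAR enzymes deaminate adenosine to inosine, which is read as guanosine both by the ribosome and in sequencing, so a site's share of G reads measures how many copies of the message were edited there.

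The sites on which the results turn are shown with 10 bases on either side, as spliced GENCODE v29 transcript sequence on the gene's strand, with the edited adenosine in capitals. They were chosen because they had the highest mean gain, were called in the most libraries, or differed most between constructs.
NDUFB11 S32G: ctgggaatctAgcttctccag
NDUFB2 Q46R: cggtatagacAgttcccccag
ATP5F1B R121G: aggcttggttAgaggccagaa
ATP5MC2 3′ UTR: cacctcccatAgttctcccgc
ATP5F1D 3′ UTR, position 1244490: cagggatgccAggtgggccca
ATP5F1D 3′ UTR, position 1244460: cggtgtcccgAggcccggcca
UQCR11 3′ UTR, position 1598136: gacaagaggaAacccacagct
UQCR11 3′ UTR, position 1598135: acaagaggaaAcccacagctc
UQCRFS1 stop codon: attgttggttAagagacttgg
COX10 Y342C: cggggcggctActgcatgatg
COX11 Y111C: ggggcgtcctAcgctgccgta
COX7B I50V: cactttctgtAttgttacatg
NDUFAB1 V145V: aagaaattgtAgattacattg
NDUFA4 3′ UTR: attggagattAcaatgattaa
NDUFA2 3′ UTR: gcctccactgAggattaagag
SDHAF1 Q8R: agccggctgcAgaggcaggtt
SDHA T87A: agggtttaatAcagcatgtgt
NDUFS5 M1V: tcgggtagccAtgcctttctt
COX5A 3′ UTR, position 74920298: actttaataaAagggaaatga
COX5A 3′ UTR, position 74920297: ctttaataaaAgggaaatgag

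Residues are numbered from the start methionine of the transcript used, with the unedited residue first, the position next and the edited residue last. Among the 27 sites named here, which fall in 20 genes, the edited adenosine stood in the triplet TAG at 5 (NDUFB11 S32G, ATP5MC2, ATP5F1B R121G, COX7B V56V and NDUFAB1 V145V) and directly after a G at 4 (NDUFA2, NDUFAF7 R382G, ATP5F1D position 1244460 and ATP5MC3). Over the 2326 member sites in exons of 1 gene, TAG made up 7.31%, against 8.66% over the 349243 listed sites in exons of 1 protein-coding gene. A G followed the edited adenosine at 54.9% of these members and 58.7% of all such sites, and a G preceded it at 11.4% and 12.1%.

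Read depth is not given in the tables, which hold shares without counts, so no counting interval is attached to any share and a share of 0 can also stand for a site without reads. In the 3 untransfected runs the mean share over the 2755 members was 0.142% to 0.154%, close to the range over all listed sites (0.146% to 0.159%). Exceptions were few, with 4 members averaging more than 5% in untransfected cells. ATP5F1B position 56645997 averaged 63.3% there but carries no adenosine on the gene's strand. NDUFV2 position 9134264 averaged 38.7%, ATP5PO position 33909117 averaged 26.1% and COX7A2L position 42350663 averaged 7.85%. The authors' deposited table gave an adjusted p under 0.01 with a share above the untransfected mean (a call, in what follows) at 0 of the 2755 members in the untransfected, GFP and guide-alone libraries. Over all listed sites the same rule called 0%, 0.000261% and 0.00104% in the 3 untransfected runs, 0.00157% with GFP, 0.00366% with MS2 adRNA, 0.0047% with GluR2 adRNA and 0.00601% with gRNA.

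All 22 deaminase libraries held called respiratory chain sites, from 19 sites in 16 genes (full-length wild-type ADAR2 without GluR2 adRNA) to 1810 sites in 95 genes (MCP-ADAR1 DD (E1008Q)-NES without MS2 adRNA). The median was 343.5 called sites. Only 3 of the 2755 members, and 115 of the 382978 listed sites, were called in 0 of the 22 libraries. A listed site was thus nearly always one called in some deaminase library. In what follows, each percent of members called in the authors' deposited table stands beside the background, the percent of all listed sites called in the same library.

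Among the MCP-ADAR1 libraries, the wild-type NES fusion called 1034 members without and 982 with the MS2 adRNA, which is 37.5% against a background of 30.3% and 35.6% against 26.4%. Its NLS form called fewer, 257 and 345 members (9.33% against 5.35%, and 12.5% against 7.45%). The E1008Q-NES fusion called the most, 1810 and 1626 members (65.7% against 59.2%, and 59.0% against 51.1%). Its NLS form called 778 and 944 members (28.2% against 23.5%, and 34.3% against 28.9%). Localisation thus separated the counts within each form, and every E1008Q count was above the wild-type count of the same localisation.

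The MCP-ADAR2 libraries called fewer members throughout. The wild-type NES fusion called 110 without and 205 with the MS2 adRNA (3.99% against 2.48%, and 7.44% against 5.29%), and the NLS fusion 54 and 49 (1.96% against 0.982%, and 1.78% against 1.24%). The E488Q-NES fusion called 342 and 413 (12.4% against 9.21%, and 15.0% against 11.2%), and the E488Q-NLS fusion 250 and 337 (9.07% against 7.32%, and 12.2% against 9.94%). The highest MCP-ADAR2 count, 413, was above only 2 of the 8 MCP-ADAR1 counts, those of the wild-type NLS fusion.

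Full-length ADAR2 called 19 members without and 98 with the GluR2 adRNA (0.69% against 1.5%, and 3.56% against 4.85%). Its E488Q form called 131 and 792 (4.75% against 6.72%, and 28.7% against 32.7%). The Cas13b fusion called 899 without and 456 with its gRNA (32.6% against 29.5%, and 16.6% against 12.9%). Full-length ADAR2 thus had more called respiratory chain sites with its guide in both forms and the Cas13b fusion fewer, each without a test, since a condition is 1 library.

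Read against the whole table, the members were called more often by the fusions but had lower shares. Read depth is unknown, so whether it differed between members and other sites, and bore on both, was not tested. The percent of members called was above the percent of all sites in 18 of the 18 MCP and Cas13b libraries (1.11 to 2.00 times) and below it in 4 of the 4 full-length ADAR2 libraries (0.459 to 0.878 times). When a call also needed a gain of at least 5 percentage points over untransfected cells, only 3 of the 18 fusion libraries remained above the whole table (0.709 to 1.23 times), while the 4 full-length libraries stayed below it (0.310 to 0.530 times).

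**Figure D1:**
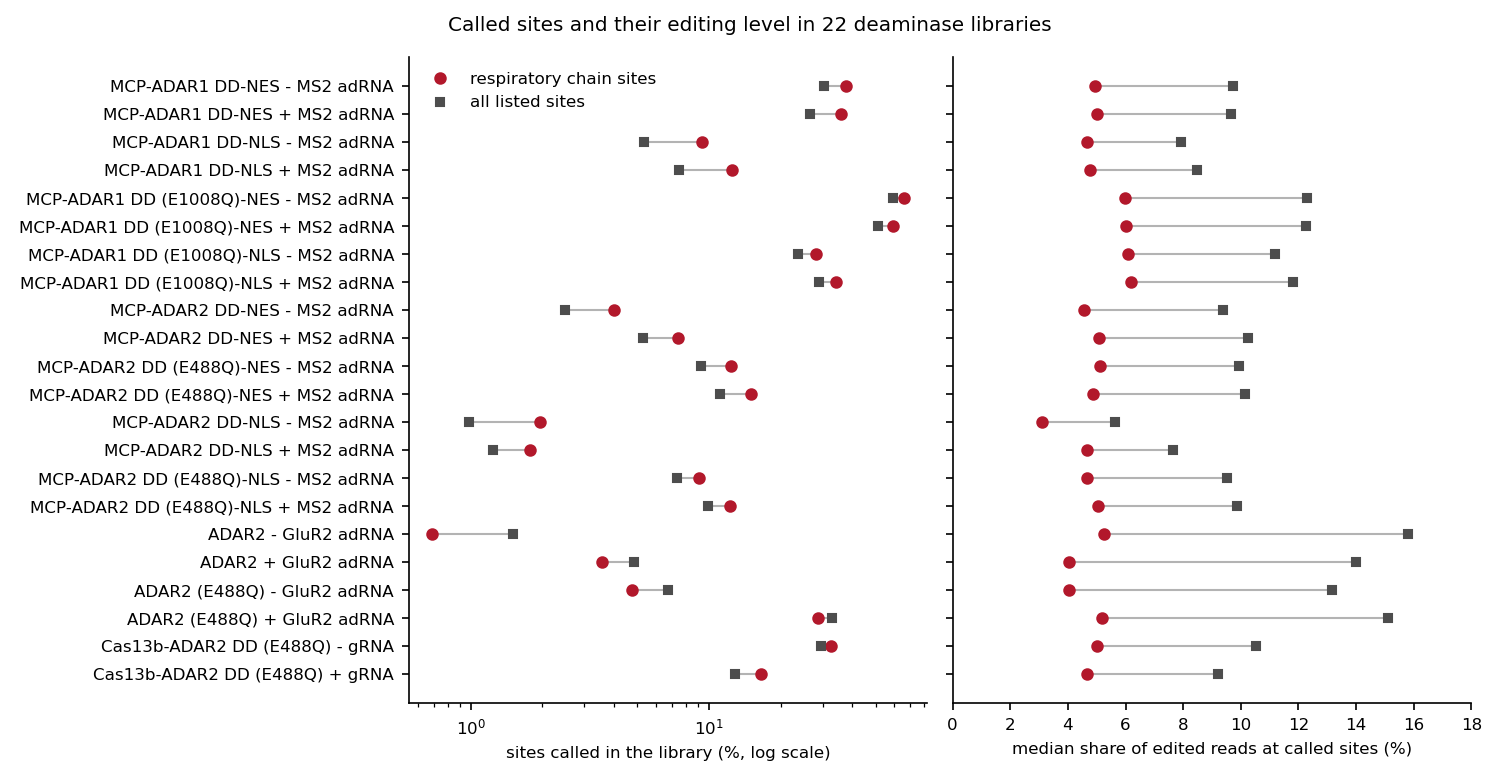
Left: percent of respiratory chain sites (circles) and of all listed sites (squares) called in each of the 22 deaminase libraries, on a log axis. Right: median share of edited reads at the called sites. Circles lie right of squares on the left for 18 MCP and Cas13b libraries and left of them for 4 full-length ADAR2 libraries, and on the right they lie left of the squares in all 22.

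At called members the median share was 3.11% to 6.20% across the 22 libraries, below the 5.62% to 15.8% at all called sites in every library. The mean over all members, called or not, was likewise below the mean over all sites in 22 of 22 libraries, and ran from 0.388% to 7.86%. Taking each site's highest share in any deaminase library, the members had a median of 6.22% and all listed sites 14.1%. A share of 10% or more was reached by 922 members (33.5%) against 64.4% of all sites, and 50% or more by 50 members (1.81%) against 4.52%. Yet 261 members (9.47%) were called in 11 or more libraries, against a background of 6.63% of all sites. The 50 members at 50% or more include ATP5F1B position 56645997 and NDUFV2 position 9134264. These averaged 63.3% and 38.7% in untransfected cells and were called in 0 deaminase libraries.

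Complex I, the NADH dehydrogenase, supplied 988 sites in 36 of its 37 genes, and 38.6% of them reached a share of 10%. Complex II, the succinate dehydrogenase, had 180 sites in 4 of 4 genes with 35.6% at that level. Complex III, the cytochrome bc1 complex, had 321 sites in 8 of 9 genes (25.5%), and complex IV, the cytochrome c oxidase, 307 sites in 11 of 17 genes (26.7%). ATP synthase had 699 sites in 17 of 19 genes, with the lowest proportion at that level (21.6%). Of the 260 sites of assembly and regulatory factors, in 21 of 24 genes, 62.3% reached 10%, near the 64.4% of all listed sites. Their median highest share was 15.7%, against 14.1% over all listed sites and 4.39% to 7.25% in the 5 complexes. It was thus the 5 complexes that lay below the whole table. Called in 11 or more libraries were 49 complex IV sites (16.0%), 74 ATP synthase sites (10.6%), 94 complex I sites (9.51%), 22 complex III sites (6.85%), 11 complex II sites (6.11%) and 11 sites of assembly and regulatory factors (4.23%). The background over all listed sites was 6.63%. Complex IV thus had the highest proportion of recurrently called sites and the assembly factors the lowest, the reverse of the order of their highest shares. Of the 49 complex IV sites, 15 lay in COX4I1, 10 in COX6A1 and 6 in COX8A, so a few messages held many of them.

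**Figure D2:**
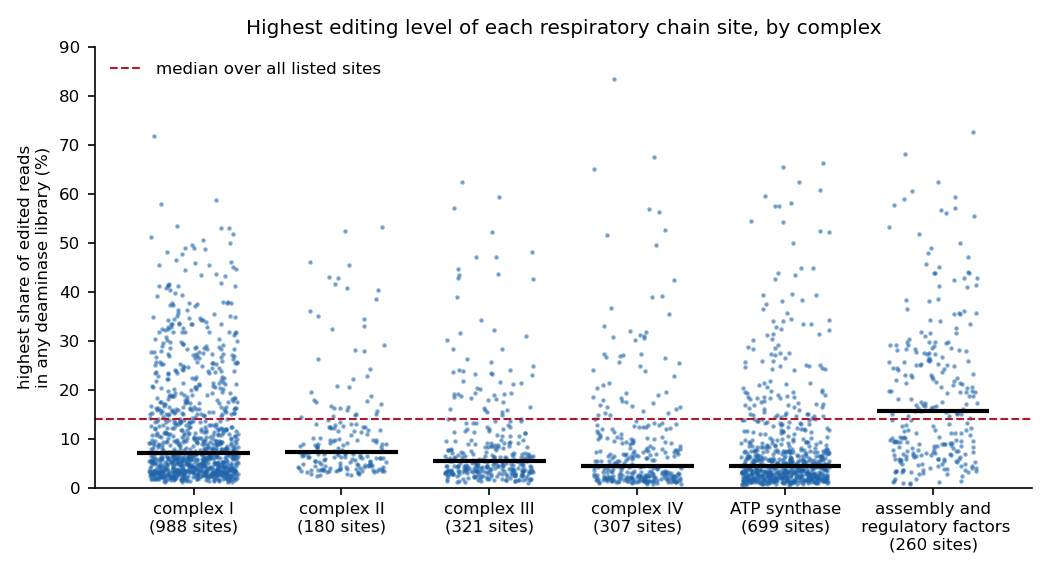
Highest share of edited reads of each of the 2755 sites in any deaminase library (vertical axis, percent), by complex, with black bars at the group medians and a dashed line at the median of all listed sites (14.1%). Only the assembly and regulatory factors have a median (15.7%) above the dashed line.

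Listed sites were packed densely in the short messages of this set. The median listed member gene had 6.94 sites per 100 exonic adenosines of 1 annotated transcript, against 3.34 over 9349 protein-coding genes with a listed site, and its transcript was 1112 bases long against 2953. ATP5F1B, the catalytic beta subunit of ATP synthase, had the most sites (139), followed by UQCRC1, a core subunit of complex III (116), ATP5F1A, the alpha subunit of ATP synthase (90), NDUFV1, the subunit of complex I that binds NADH (74), and UQCRC2, another core subunit of complex III (69). Sites were counted in exons of any transcript of a gene but adenosines in 1 transcript only, so these densities are approximate. By this measure the densest were COX4I1 (36.1 per 100 adenosines), NDUFB7 (36.0), COX8A (35.9), NDUFA11 (35.4) and ATP5MF (32.9). Exons shared with other genes held 10 of the 28 COX8A sites, 25 of the 34 NDUFA11 sites and 11 of the 27 ATP5MF sites. At those sites the reads of the overlapping genes cannot be told apart. COX4I1 and NDUFB7 had 0 such sites. Of the 97 listed genes, 49 share their name with at least 1 annotated pseudogene, whose near-identical copies could take or give reads, and sites there are uncertain to that extent.

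The ATP5F1B message shows how calls spread along 1 transcript. Across the 22 libraries 0 to 95 of its 139 sites were called, with a median of 30, and its mean share ran from 0.374% (full-length ADAR2 without guide) to 4.36% (MCP-ADAR1 DD (E1008Q)-NES without MS2 adRNA). UQCRC1 had 0 to 74 of its 116 sites called, with a median of 12, and a mean share of 0.182% to 4.85%. ATP5F1A had 1 to 52 called sites, NDUFV1 0 to 49 and UQCRC2 0 to 42. In each of these 5 messages the highest mean share was found in an MCP-ADAR1 DD (E1008Q)-NES library.

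**Figure D3:**
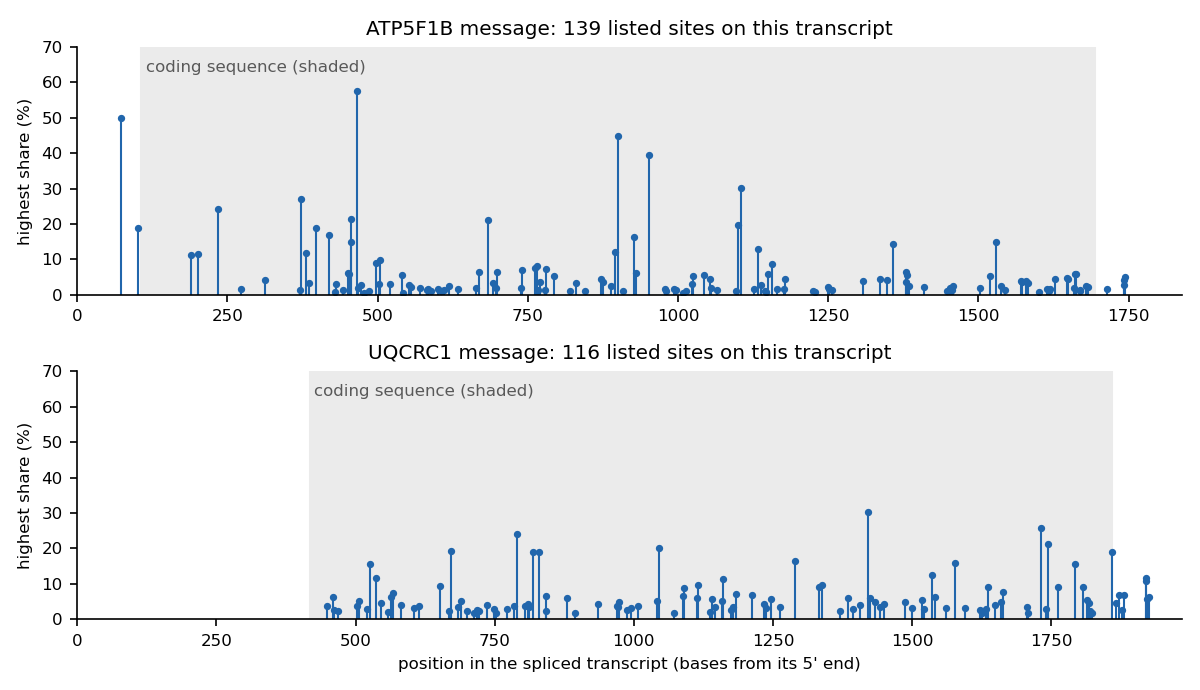
Highest share of edited reads in any deaminase library (percent) at each listed site along the spliced ATP5F1B and UQCRC1 transcripts, counted in bases from the 5′ end, with the coding sequence shaded. Most of the 139 and 116 sites stay low, and single adenosines such as ATP5F1B R121G (57.4%) stand above their neighbours. The ATP5F1B point at 50% in the 5′ UTR is position 56645997, which carries no adenosine on the gene's strand.

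Of the 13 genes without a listed site, several are isoforms of complex IV subunits known from particular tissues: COX4I2, COX6A2, COX6B2, COX7A1, COX7B2 and COX8C. These names were picked after the values had been seen. No expression values were used here, so whether these messages were present at all was not tested. Among 38 nuclear genes of the same pathway that the symbol rule does not reach (cytochrome c and its partner CYC1, the SURF1, SCO and COA assembly factors, LRPPRC and others), 37 had 1137 listed sites, of which 58.9% reached a share of 10% and 4.93% were called in 11 or more libraries. Over all listed sites these proportions were 64.4% and 6.63%. The 13 respiratory chain genes of the mitochondrial genome had 0 listed sites. The rule for listing sites is unknown, and whether it took in the mitochondrial genome was not tested. No absence of editing can therefore be read from this 0. LRPPRC, an RNA-binding protein that stabilises mitochondrial messages, had the most of the nuclear set (141), and CYCS, cytochrome c itself, had 54.

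Most coding sites changed the protein sequence. Of 1832 members with a reading frame in exons of 1 gene, 1332 were recoding, in 91 genes, and 500 (27.3%) were synonymous, against 26.2% over all such sites. Lysine to arginine was the commonest change (274 sites, 15.0% of members and 15.0% of all sites), then glutamine to arginine (162), tyrosine to cysteine (126) and threonine to alanine (116). Serine to glycine made up 4.64% of members against 7.11% of all sites. A share of 10% or more was reached by 342 recoding members (25.7%, against 58.6% of all recoding sites in 1 protein-coding gene) and 50% or more by 16 (1.2%, against 2.99%). The median highest share was 5.26% at coding members and 12.5% at those in 3′ UTRs, against 12.4% and 17.6% over all such sites. No protein was measured, so these are predicted changes of the message only.

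The member with the highest mean gain over untransfected cells was NDUFB11 S32G (chromosome X, position 47144586, minus strand), in an accessory subunit of complex I. Its share was lowest at 5.76%, had a median of 42.6% and was highest at 71.7% over the 22 libraries, against 0.129% in untransfected cells, a mean gain of 40.3 percentage points. The 8 MCP-ADAR1 libraries read 39.7% to 71.7% and the 8 MCP-ADAR2 libraries 18.8% to 47.9%, so the ranges overlapped. Within matched pairs the ADAR2 domain was lower in 8 of 8, by a difference of -20.4 ± 6.29 percentage points (SD, limma adjusted p = 1.91e-05). Full-length ADAR2 read 5.76%, 16.2%, 8.97% and 36.0% (wild type without and with guide, then E488Q without and with guide), and the Cas13b fusion 51.9% and 40.9%. The glutamate-to-glutamine change raised it in 8 of 8 MCP pairs, by 14.2 ± 6.64 percentage points (SD, limma adjusted p = 0.00067). In the authors' deposited table it was 1 of 6 members called in 22 of 22 libraries, against a background of 0.13% of all sites.

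The other 5 were NDUFB2 Q46R (chromosome 7, position 140702904), ATP5F1D position 1244490 in the 3′ UTR (chromosome 19), and, in exons shared with other genes, ATP5PO K60R, COX8A K34R and NDUFA11 E51E. NDUFB2, a further accessory subunit of complex I, read 6.76% to 48.1% with a median of 30.0%, and the MCP-ADAR1 (10.8% to 41.5%) and MCP-ADAR2 (11.8% to 39.0%) ranges overlapped almost entirely. Its difference between the domains was 2.01 ± 6.17 percentage points (SD over 8 pairs), with a limma adjusted p of 0.474. ATP5F1D, the delta subunit in the central stalk of ATP synthase, read 7.56% to 60.9% at position 1244490 with a median of 23.3%. Its 4 full-length ADAR2 values, 23.4%, 32.0%, 44.0% and 60.9%, lay partly above the highest MCP value of 39.3%.

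**Figure D4:**
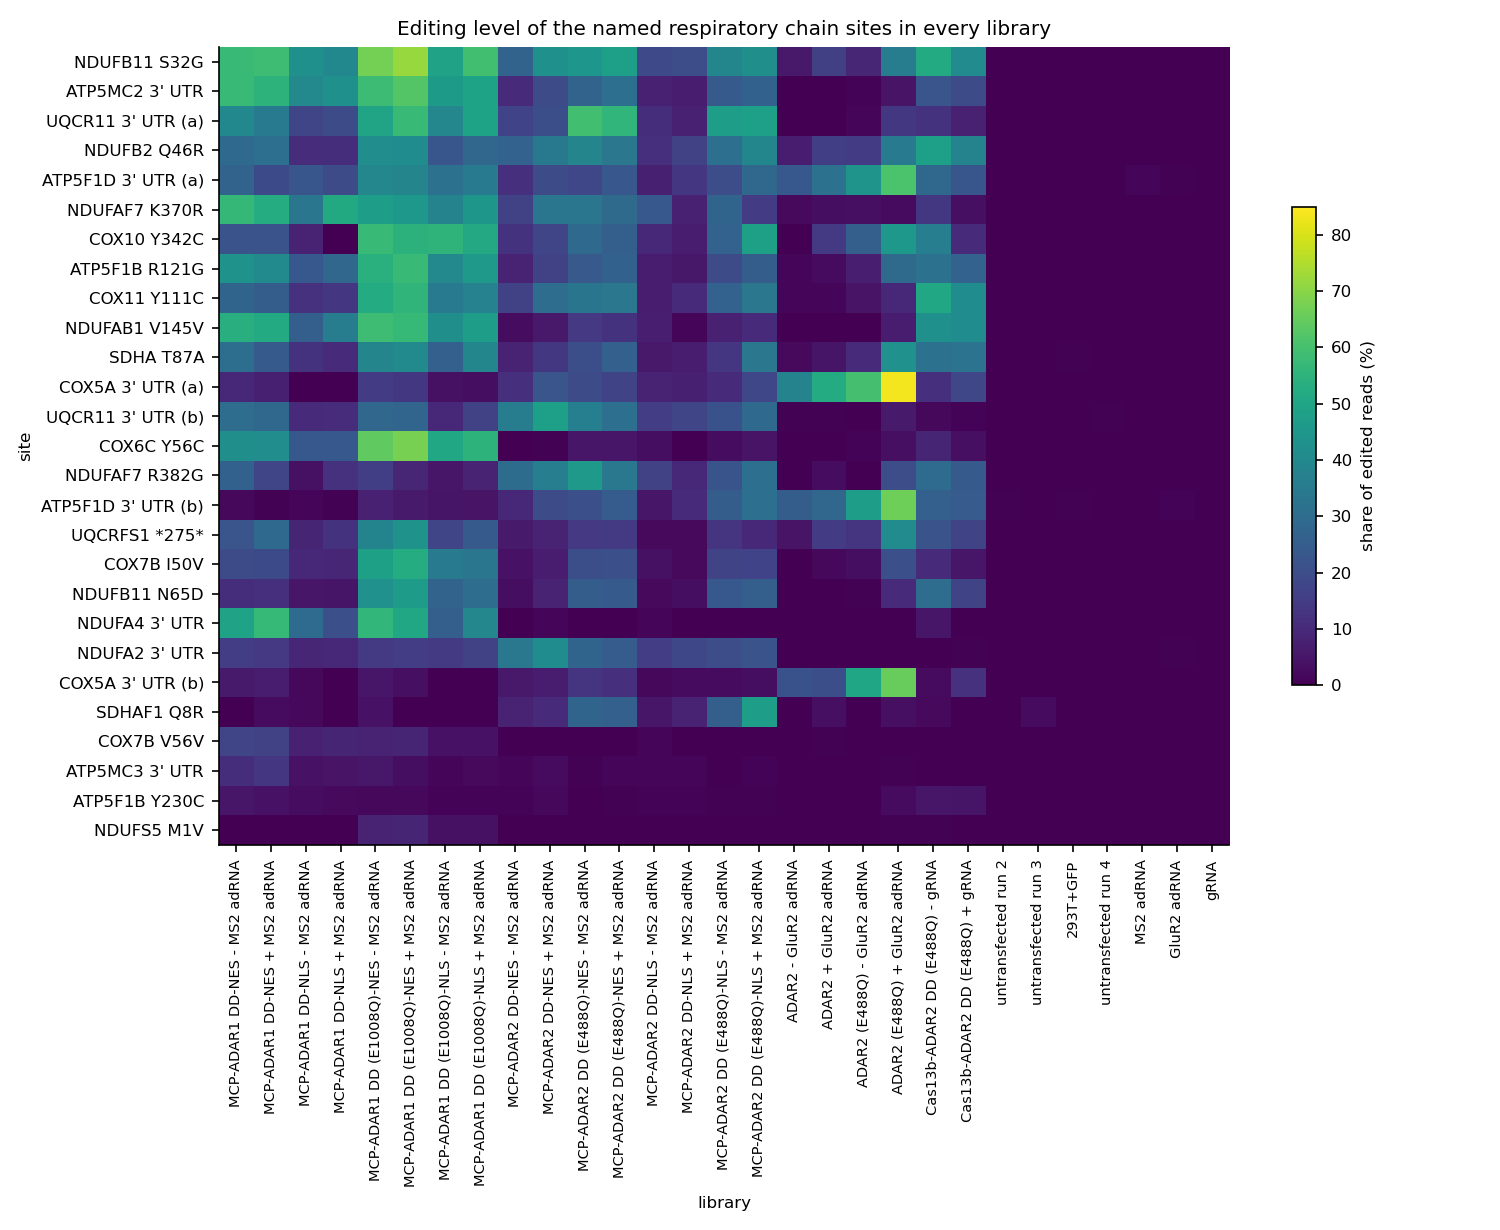
Share of edited reads (colour, percent) of the 27 named sites (rows, ordered by mean share) in the 22 deaminase libraries and 7 controls (columns). For genes with a pair of 3′ UTR sites, (a) marks UQCR11 position 1598135, ATP5F1D position 1244490 and COX5A position 74920297, and (b) the other. The control columns are dark throughout, and single rows are bright in 1 family of constructs only.

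The hyperactive glutamate-to-glutamine change raised editing over a large part of the set. The mean share over members was higher in 8 of 8 matched MCP pairs, by 1.99 ± 1.21 percentage points (SD, 3.78% against 1.79%), and the number of called members was 2.88 times as high on geometric average (1.66 to 6.88 times). Over all listed sites the difference was 3.04 points and the ratio 3.63. In a limma model of the 16 MCP libraries, with Benjamini-Hochberg adjustment over all sites, 1035 members rose (37.6%) and 16 fell (0.581%), against a background of 39.7% higher and 0.72% lower over the whole table. By complex, the proportion that rose ran from 30.8% (complex III) to 43.8% (assembly and regulatory factors). Both proportions of members were close to the background. With the NES or NLS libraries alone, which leave 4 residual degrees of freedom, the counts of members that rose were 293 (10.6%, against 11.5% of all sites) and 326 (11.8%, against 14.5%).

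**Figure D5:**
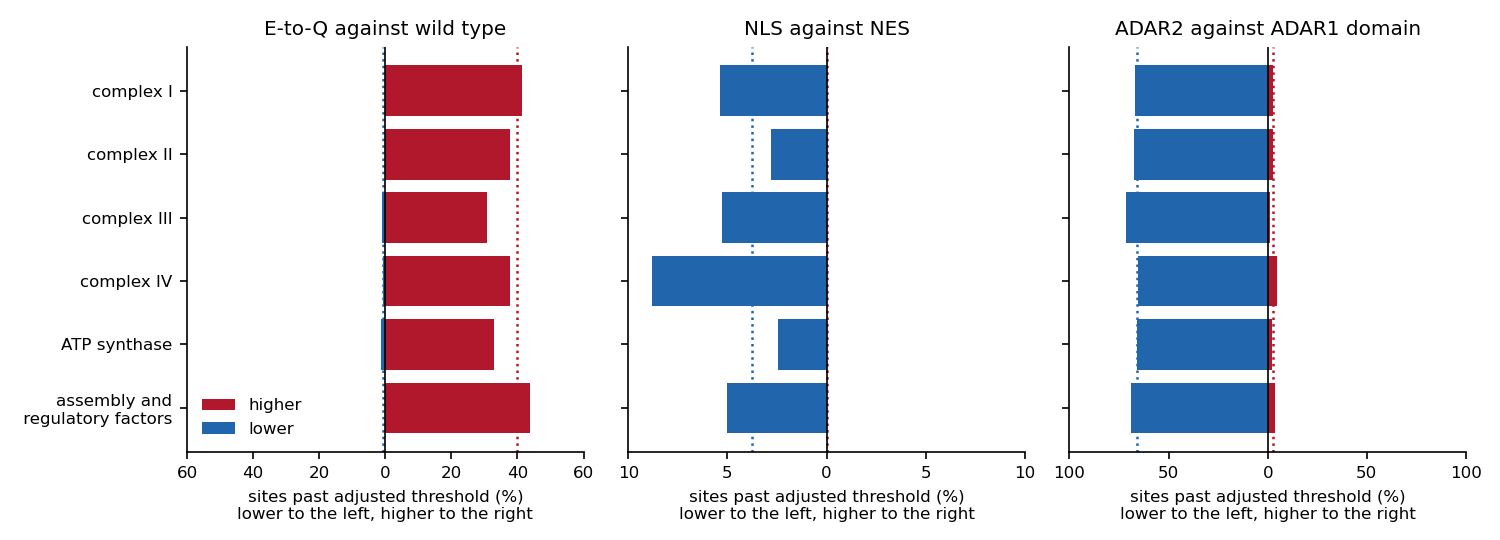
Percent of sites past a limma adjusted p of 0.05 in the 16 MCP libraries, higher (right of 0) and lower (left of 0), for 3 factors and by complex, with dotted lines at the percent over all listed sites. Bars lie near the dotted lines for the glutamate-to-glutamine change (30.8% to 43.8% higher) and for the domain (65.5% to 71.7% lower), and are longest for complex IV (8.79% lower) for localisation.

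Among the named sites, the largest rises with the change were in COX10, UQCR11 and NDUFB11. COX10, which makes the haem A precursor for complex IV, read 0% to 21.9% (median 11.0%) at Y342C (chromosome 17, position 14206906) in the wild-type libraries. In the glutamine forms it read 25.6% to 57.1% (median 49.7%), and the ranges did not overlap. The rise was 31.2 ± 15.7 percentage points (SD, 8 of 8 pairs, limma adjusted p = 0.000665), although the authors' deposited table called this site in only 7 of 22 libraries. UQCR11, a small subunit of complex III, read 7.93% to 39.7% (median 18.6%) at 3′ UTR position 1598135 (chromosome 19) in wild-type libraries and 39.3% to 59.3% (median 49.5%) in glutamine libraries. That is a rise of 29.8 ± 10.9 points (8 of 8 pairs, limma adjusted p = 4.28e-05), with ranges that overlapped slightly. NDUFB11 N65D (position 47144487) read 2.29% to 11.7% and 23.3% to 46.5%, without overlap, a rise of 24.4 ± 6.09 points (limma adjusted p = 6.24e-06).

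Similar rises were found at sites called in most libraries. COX7B I50V (chromosome X, position 77902750), in a small structural subunit of complex IV, rose by 21.3 ± 7.49 points from 9.29% to 30.6% (limma adjusted p = 1.16e-05). COX11 Y111C (chromosome 17, position 54968315), in a copper chaperone of complex IV, rose by 20.6 ± 8.13 points from 17.8% to 38.4% (limma adjusted p = 8.61e-05). SDHA T87A (chromosome 5, position 224468), in the flavoprotein subunit of complex II, rose by 15.7 ± 8.03 points (limma adjusted p = 0.000859). ATP5F1B R121G (chromosome 12, position 56644905) rose by 15.0 ± 3.40 points from 21.5% to 36.6% (limma adjusted p = 0.000162). In each of these 4 the direction held in 8 of 8 pairs.

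A few adenosines went the other way. COX7B V56V (position 77905186), a synonymous site further along the message than I50V, read 17.8%, 16.4%, 7.77% and 8.93% in the 4 wild-type MCP-ADAR1 libraries and 8.56%, 8.89%, 4.28% and 4.22% in the 4 E1008Q libraries. In the MCP-ADAR2 libraries it stayed at or under 1.25%. The fall over 8 pairs was -3.31 ± 3.6 points (limma adjusted p = 0.0379, and 0.0641 on the log2 scale). In the 3′ UTR of ATP5MC3, a c-ring subunit of ATP synthase, position 175178221 read 11.2%, 13.4%, 4.03% and 4.41% with wild-type and 5.34%, 3.21%, 1.19% and 2.02% with E1008Q MCP-ADAR1 (-3.08 ± 3.37 points over 8 pairs, limma adjusted p = 0.0179). ATP5F1B Y230C (position 56643506) fell in the MCP libraries from a mean of 2.35% to 0.89% (-1.46 ± 1.05 points, limma adjusted p = 0.0158). Outside them, the Cas13b fusion, which carries E488Q, read 5.26% without and 4.65% with its gRNA there. Full-length ADAR2 read 0.132% (wild type) and 0.0653% (E488Q) without guide, and 0.332% and 2.36% with it. These 3 sites were higher in the wild-type library of 8 of 8 MCP pairs, a condition by which they were chosen. I50V and V56V of the same COX7B message moved in opposite directions.

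Whether the change acted alike in both domains was tested by an interaction term in limma. On the arcsine scale the glutamine-minus-wild-type difference was higher in MCP-ADAR2 than in MCP-ADAR1 at 5 members and lower at 135 (0.181% and 4.90%, against a background of 0.248% and 3.44%). UQCR11 position 1598135 was among the 5, with a rise of 38.5 ± 3.11 points in MCP-ADAR2 and 21.1 ± 8.26 points in MCP-ADAR1 (SD over 4 pairs each, interaction adjusted p from limma = 0.0463). The start codon of NDUFS5, a subunit of complex I, was among the 135. At NDUFS5 M1V (chromosome 1, position 39028725) the 4 MCP-ADAR1 E1008Q libraries read 8.49%, 8.82%, 3.82% and 3.70%, the 4 wild-type ones 0.318%, 0.301%, 0% and 0.141%, and the 8 MCP-ADAR2 libraries at most 0.135%. Its interaction adjusted p from limma was 0.0112. NDUFS5 shares its name with 6 annotated pseudogenes, so this site is uncertain to that extent.

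Directing the fusions to the nucleus lowered editing of these messages. The mean share over members was lower with the NLS in 8 of 8 MCP pairs, by a difference of -1.67 ± 1.48 percentage points (SD, 1.95% against 3.62%), and called members were 2.25 times fewer on geometric average (1.23 to 4.18 times). The whole table had a difference of -2.18 points and 2.46 times fewer calls. In limma 0 members were higher and 132 lower (4.79%), against a background of 0.0397% higher and 3.76% lower. At an unadjusted p under 0.05, 944 members (34.3%) differed in either direction, against 30.2% of all sites. With the interaction term in the model 1 member was higher (0.0363%, against 0.0619% of all sites). Complex IV had the highest proportion of members that fell (8.79%, 27 sites), then complex I (5.36%, 53 sites), complex III (5.30%), the assembly and regulatory factors (5.00%), complex II (2.78%) and ATP synthase (2.43%).

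Among the named sites, the largest fall with the NLS was at UQCR11 position 1598136, the adenosine just 5′ of position 1598135. It read 27.7% to 48.1% (median 30.7%) in the NES libraries and 9.86% to 29.0% (median 16.1%) in the NLS libraries, ranges that overlapped slightly. The difference was -16.9 ± 8.13 points (8 of 8 pairs lower, limma adjusted p = 0.0185), and the site was chosen by this. This neighbour did not follow position 1598135 with the glutamine change, where its difference was 0.406 ± 8.34 points (limma adjusted p = 0.797). NDUFB11 S32G fell with the NLS from a mean of 52.2% to 38.9% (-13.3 ± 6.47 points, limma adjusted p = 0.0243, and 0.067 on the log2 scale). NDUFAF7 R382G (chromosome 2, position 37248168), in a methyltransferase that assembles complex I, read a mean of 26.9% and 13.6% (-13.3 ± 10.0 points, limma adjusted p = 0.0479, and 0.0561 on the log2 scale), and was called in only 2 libraries of the authors' deposited table. NDUFB11 S32G and NDUFAF7 R382G were also chosen by their difference with the NLS.

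No member passed the threshold for the MS2 adRNA. With it, the mean share over members was higher in 5 of 8 MCP pairs, by 0.176 ± 0.418 percentage points (SD), and called members were 1.18 times as many on geometric average (0.898 to 1.86 times), against a difference of 0.213 points and a ratio of 1.24 over all listed sites. In limma 0 members were higher and 0 lower, against a background of 0.000783% and 0%, and 62 members (2.25%) had an unadjusted p under 0.05 against 3.05% of all sites. The other models tried called 0 members as well. NDUFB11 S32G differed by 4.56 ± 5.86 points with the guide (7 of 8 pairs higher), with a limma adjusted p of 1.

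The ADAR2 domain edited most members less than the ADAR1 domain did. The mean share over members was lower in 8 of 8 MCP pairs, by a difference of -3.10 ± 1.80 percentage points (SD, 1.23% against 4.33%), and called members were 4.78 times fewer on geometric average (2.80 to 9.40 times). Over all listed sites the difference was -4.39 points and the calls 5.22 times fewer. In limma 1855 members were lower (67.3%) and 74 higher (2.69%), against a background of 66% lower and 2.6% higher. The proportion that was lower ran by complex from 65.5% (complex IV) to 71.7% (complex III).

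At several adenosines the ADAR1 fusions gave much the higher shares. COX6C Y56C (chromosome 8, position 99887566), in a small subunit of complex IV, read 23.4% to 67.5% (median 46.4%) in MCP-ADAR1 and 0% to 5.2% (median 2.96%) in MCP-ADAR2, without overlap. The difference was -43.3 ± 15.1 points (SD, limma adjusted p = 5.47e-07). COX6C shares its name with 17 annotated pseudogenes, so this site is uncertain to that extent. NDUFA4, now counted as a complex IV subunit, read 20.9% to 56.9% in MCP-ADAR1 and 0% to 1.47% in MCP-ADAR2 at 3′ UTR position 10933489 (chromosome 7), and 0% in all 4 full-length ADAR2 libraries (-40.8 ± 14.2 points, limma adjusted p = 7.05e-07). NDUFAB1, the mitochondrial acyl carrier protein of complex I, read 25.9% to 58.7% and 1.47% to 14.3% at V145V (chromosome 16, position 23582320), a difference of -38.8 ± 9.94 points (limma adjusted p = 6.70e-07). There the Cas13b fusion, which carries the ADAR2 E488Q domain, read 42.8% and 41.5%, above the highest MCP-ADAR2 value. ATP5MC2, another c-ring subunit, read 40.1% to 62.3% and 6.94% to 31.0% at 3′ UTR position 53665291 (chromosome 12) and at most 4.40% in full-length ADAR2. NDUFAF7 K370R (position 37247628) read 33.3% to 56.8% in MCP-ADAR1 and 7.69% to 33.3% in MCP-ADAR2 (-23.1 ± 13.3 points, limma adjusted p = 0.000273).

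Others were edited more by the ADAR2 domain. SDHAF1, ATP5F1D position 1244460 and NDUFA2 were picked in the same way, with 8 of 8 pairs higher. SDHAF1, an assembly factor of complex II, read 0% to 4.00% (median 0%) at Q8R (chromosome 19, position 35995297) in MCP-ADAR1 and 5.08% to 47.2% (median 18.2%) in MCP-ADAR2, without overlap (18.9 ± 14.6 points, limma adjusted p = 0.000141). The authors' deposited table called this site in only 4 of 22 libraries, and 1 untransfected run read 2.63%. ATP5F1D position 1244460 read 0.397% to 7.93% and 5.11% to 30.9% (14.8 ± 7.55 points, limma adjusted p = 1.45e-05), and 24.9%, 28.0%, 47.4% and 66.2% in full-length ADAR2. NDUFA2, an accessory subunit of complex I, read 9.13% to 16.8% and 15.3% to 41.4% at 3′ UTR position 140645575 (chromosome 5), a rise of 11.7 ± 7.71 points (limma adjusted p = 0.00149). Full-length ADAR2 read 0% there in 4 of 4 libraries. So of these 3 sites, full-length ADAR2 had high shares at ATP5F1D, 0% at NDUFA2, and 0%, 3.57%, 0% and 3.33% at SDHAF1. Position 1244490 of ATP5F1D, downstream of 1244460 in the same 3′ UTR, had the opposite difference between the domains (-11.4 ± 6.84 points, limma adjusted p = 0.000799).

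COX5A, a subunit of complex IV, held the highest share of any member, 83.6%. At 3′ UTR position 74920297 (chromosome 15) full-length ADAR2 read 37.9%, 52.4%, 60.0% and 83.6%, while the MCP-ADAR2 libraries read 7.32% to 22.4%, the MCP-ADAR1 libraries 0% to 15.0% and the Cas13b fusion 11.9% and 18.2%. At its 5′ neighbour, position 74920298, full-length ADAR2 read 21.4%, 20.5%, 50% and 65.2%, and the MCP-ADAR2 libraries 1.96% to 13.2%. The lowest full-length value was thus above the highest fusion value at both adenosines, a difference by which these sites were chosen. Among the MCP libraries both were lower with the NLS in limma, by differences of -8.30 ± 4.85 points (adjusted p = 0.0267) and -5.83 ± 2.56 points (adjusted p = 0.0195). The authors' deposited table called them in only 3 and 2 libraries. Position 74920298 is the last base of an AATAAA, the hexamer known as the polyadenylation signal. Searched on the gene's strand only, AATAAA was held by 0.645% of the 21-base windows around members and 0.330% of those around all sites in 1 protein-coding gene (2.53% and 0.625% in 3′ UTRs). This one lies 507 bases before the annotated end of the transcript, so no use of it as a signal can be read from the match.

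Listed sites also fell in start and stop codons. The 4 members in start codons, in 4 genes, had a highest share of 10.0% (NDUFA10 M1V). Stop codons held 23 members in 20 genes, with a median highest share of 6.95%, against 6.22% over all members, and 7 of them reached 10%. The UQCRFS1 site (chromosome 19, position 29207549), in the iron-sulphur subunit of complex III, was the most edited and was called in 18 libraries of the authors' deposited table. It is the second base of TAA, where a single edit leaves a TGA stop, and it read 2.05% to 43.6% with a median of 14.3%. The glutamine change raised it by 10.6 ± 3.50 points (limma adjusted p = 0.000768) and the NLS lowered it from a mean of 22.0% to 11.3% (limma adjusted p = 0.0248). Among stop codons that become tryptophan when edited, UQCRC1 *481W was called in 15 libraries with a highest share of 19.0%, and NDUFS3 *265W reached 25.4% and COX5B *130W 20.3%. These last 3 were picked after their values had been seen.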

How the data were processed

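HEK 293T cells were harvested 60 hours after transfection, and poly(A) libraries from 300 ng RNA were read as 100 bp pairs, per the labels' protocols. Tools and build, per the submitters' processing notes, were STAR 2.6.0c, SAMtools, bcl2fastq 2.18.0.12 and GRCh38.p12. The authors deposited a table of edited-read shares (a fraction of the reads at each site in each library) and a matching table of adjusted p-values, 29 mapped columns each. The test behind the p-values and the rule by which sites were listed are not stated in any label or header. Nearly all listed sites were called in at least 1 deaminase library. How far this shaped the absence of calls in the controls, the factor counts and the site densities was not tested. The shares come without read counts, and 1 column without a name of its own was not used, so 3 of 4 untransfected runs entered. A call was an authors' adjusted p under 0.01 with a share above the untransfected mean.

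Sites were joined to GENCODE v29 exons and spliced transcripts in Python 3.11.15 with pandas 2.3.3, numpy 2.4.6, scipy 1.17.1 and matplotlib 3.10.9. The arcsine square root of the share was fitted in limma 3.58.1 (R 4.3.3) over all 382978 sites and 16 MCP libraries, with domain, glutamine change, localisation and MS2 adRNA as main effects. The fit had 11 residual degrees of freedom, a threshold of 0.05 and Benjamini-Hochberg adjustment across the whole table. Each condition being 1 library, the spread is pooled across conditions. The code was tested on simulated data. Differences in percentage points are means over 8 matched pairs.

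Sites were named where exons of no other gene overlap: the 8 with the highest mean gain, the strongest changes for each factor and direction, the sites called in most libraries of each complex, the most edited start and stop codon sites, and those highest with Cas13b or full-length ADAR2. Members and lists were chosen with earlier results of these data known. Alternatives were another scale, a filter on low shares, no intensity trend, an interaction term, each localisation alone, other call thresholds and leaving out each untransfected run. Without replicate cultures, p-values measure spread across conditions only.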

Additional observations from a re-analysis of the deposited data

Results flagged for a closer look

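The effect of the glutamate-to-glutamine change differed between the ADAR1 and ADAR2 domains at 2 of the named sites, by the interaction term in limma. At UQCR11 position 1598135 the adjusted p was 0.0463, with a rise of 21.1 ± 8.26 percentage points in MCP-ADAR1 and 38.5 ± 3.11 points in MCP-ADAR2 (SD over 4 pairs each). At NDUFS5 position 39028725, in the start codon, the limma adjusted p was 0.0112, with a rise of 6.02 ± 2.69 points in MCP-ADAR1 and a difference of 0.0988 ± 0.0659 points in MCP-ADAR2.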

How the results depend on the processing

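Counts of changed members moved with the sites and libraries used. Of the differences at named sites, those past the threshold in the main fit were followed, and none of these changed sign under the settings tried. The signs of the other differences at named sites were not checked. None of the mean differences over members changed sign. The comparison of member calls with the whole table did turn: 18 of 18 fusion libraries lay above it, but with a gain of at least 5 percentage points 3 lay above and 15 below (0.709 to 1.23 times). With only sites that reached a share of at least 10% in some library (783 members tested), the glutamine change raised 487 members and lowered 7, and the ADAR2 domain was higher at 22 and lower at 663. There 62.2% of members rose with the change against 55.1% of all sites kept, and 84.7% were lower with the ADAR2 domain against 77.7%. Without this filter the members lay below the whole table for the change (37.6% against 39.7%). The filter kept sites by their highest share in the MCP libraries that were then compared. A share of 10% or more was reached by 659 members in MCP-ADAR1 DD (E1008Q)-NES and 17 in MCP-ADAR2 DD-NLS, both without MS2 adRNA. Sites high in the glutamine or ADAR1 libraries were thus favoured. Whether members responded more than other sites cannot be read from these filtered percents. With the NES libraries alone, the change raised 293 and lowered 1, and the ADAR2 domain was higher at 41. With the NLS libraries alone, the change raised 326 and lowered 0, and the ADAR2 domain was higher at 20 and lower at 498. With the interaction term, localisation was higher at 1 member and lower at 226. The lowest number of called members per library was 29 at an adjusted p under 0.05, 11 with that gain and 11 with only sites in exons of 1 gene. With that gain the median was 169 and the highest 1011. Leaving out each untransfected run kept 19, 343.5 and 1810. On the log2 scale 4 of 10 localisation differences and 1 of 20 glutamine differences at named sites lost the threshold, while 24 of 24 domain differences kept it. The interaction model and the model without intensity trend kept all of these. The NES libraries alone, with 4 residual degrees of freedom, kept 20 of 24 domain and 7 of 20 glutamine differences, and the NLS libraries alone 12 of 24 and 12 of 20; fewer samples entered these fits. Read depth is unknown, so a low share cannot be told from thin coverage. Whether depth bore on the calls of members at low shares was not tested either.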
